A study of Mus musculus with 12 samples.

Results

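The NRF2 oxidative and electrophile response was followed through 10 listed genes in mouse Th17 cells, a T helper subset that secretes IL-17. The genes were taken by symbol: the factor gene Nfe2l2, its inhibitor gene Keap1 and the target genes Hmox1, Nqo1, Gclc, Gclm, Txnrd1, Srxn1, Osgin1 and Prdx1. All 10 were found once each among the 55401 genes of the count table, and all 10 passed the filter on low counts. Gene expression had been measured by sequencing of total RNA in 12 libraries, 3 per group. The groups were Kira8+Stattic, Stattic, Kira8 and None, and the inhibitors were given for 4 h. All groups shared a wild-type (WT) genotype, lymph nodes as the tissue and differentiation of the cells from naive T cells. Stattic is a small thiol-reactive inhibitor of STAT3, and Kira8 is an inhibitor of the endoplasmic reticulum stress sensor IRE1alpha. Neither the origin of the replicates (cultures or animals) nor any solvent given to the None cells is stated in the labels. The p-values therefore measure only the spread between these libraries, which may be technical. The question was whether Stattic raises the genes of the NRF2 response, without and with Kira8.

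NRF2, the protein of Nfe2l2, is kept low in resting cells because KEAP1, a cysteine-rich adaptor of the CUL3 ubiquitin ligase, has it degraded. Electrophiles that modify cysteines of KEAP1 let NRF2 accumulate, pair with a small MAF protein and bind antioxidant response elements, sites that the repressor BACH1 also occupies. The targets make and recycle glutathione and thioredoxin, detoxify quinones and break down heme. Much of the control of NRF2 acts on its protein, which the mRNA counts do not measure.

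The response is read through promoter elements, so the windows of 4 genes are shown: Nfe2l2 and Srxn1, which rose with Stattic, and Gclm and Prdx1, which were not called. Each holds the core of the antioxidant response element, TGACNNNGC, searched on both strands. The sequences are from RefSeq, build GRCm38.p6, 250 bases before to 50 after the annotated start, 5′ to 3′ on the strand of the gene, and capitals mark the core or, for a match on the opposite strand, its reverse complement. The windows are chr2:75704614-75704913 on the minus strand for Nfe2l2, chr2:152105274-152105573 on the plus strand for Srxn1, chr3:122245307-122245606 on the plus strand for Gclm and chr4:116685349-116685648 on the plus strand for Prdx1.
Nfe2l2: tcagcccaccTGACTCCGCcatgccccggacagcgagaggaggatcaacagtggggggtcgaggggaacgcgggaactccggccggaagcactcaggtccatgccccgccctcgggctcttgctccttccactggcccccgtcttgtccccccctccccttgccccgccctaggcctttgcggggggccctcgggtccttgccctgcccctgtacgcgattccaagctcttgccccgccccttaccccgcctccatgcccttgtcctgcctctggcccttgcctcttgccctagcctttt
Srxn1: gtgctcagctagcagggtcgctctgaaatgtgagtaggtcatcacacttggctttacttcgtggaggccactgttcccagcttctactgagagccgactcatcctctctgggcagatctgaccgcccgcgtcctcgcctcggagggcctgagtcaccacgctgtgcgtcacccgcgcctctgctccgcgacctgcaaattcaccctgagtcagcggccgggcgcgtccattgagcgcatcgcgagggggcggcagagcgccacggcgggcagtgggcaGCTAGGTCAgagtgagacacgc
Gclm: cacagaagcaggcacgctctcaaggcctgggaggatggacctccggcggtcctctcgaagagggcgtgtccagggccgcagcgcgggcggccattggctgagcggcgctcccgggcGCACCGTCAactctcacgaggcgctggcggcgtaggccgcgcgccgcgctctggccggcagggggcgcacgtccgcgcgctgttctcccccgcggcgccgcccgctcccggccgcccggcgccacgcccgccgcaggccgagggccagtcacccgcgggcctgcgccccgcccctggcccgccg
Prdx1: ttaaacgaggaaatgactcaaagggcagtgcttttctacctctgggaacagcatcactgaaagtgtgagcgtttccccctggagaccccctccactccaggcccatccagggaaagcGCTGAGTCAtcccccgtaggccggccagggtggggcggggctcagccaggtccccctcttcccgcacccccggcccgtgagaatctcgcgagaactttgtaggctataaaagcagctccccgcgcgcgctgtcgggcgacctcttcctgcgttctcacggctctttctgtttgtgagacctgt
With the start base counted as 0, the match lay at -240 to -232 in Nfe2l2 (TGACTCCGC, same strand as the gene). On the opposite strand it lay at 28 to 36 in Srxn1 (TGACCTAGC), at -134 to -126 in Gclm (TGACGGTGC) and at -133 to -125 in Prdx1 (TGACTCAGC). The Prdx1 match overlaps the letters TGACTCA, the site of AP-1 factors. Of the 10 windows found for 8 of the 10 genes, 5 windows of 5 genes held the core, the fifth gene being Txnrd1. Keap1, Nqo1 and Osgin1 had no match to this pattern in theirs. Only TGACNNNGC was searched, so near matches were not counted, such as TGAGTCAGC in Srxn1 and, on the opposite strand, in Osgin1. Hmox1 and Gclc had no window in the table used. Among 32851 promoter windows of the same length, 12.4% held the core. The heat shock element (alternating GAA and TTC triplets with a pair of any bases between them, either strand) was in 0 of the 10 windows and in 0.603% of all windows. A match is a description of the letters, and genes with a match stood both among those that rose and among those that were not called.

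Kira8 replicate 2 and Stattic replicate 2 stood apart from the other libraries. The other 10 held 51.7 to 85.9 M counts each, with 3.38% to 5.22% of counts from mitochondrial genes and counts in 4.12% to 10.2% of olfactory receptor genes. Kira8 replicate 2 held 19.8 M counts, 61.5% of them mitochondrial, and counts in 40.1% of olfactory receptor genes, and Stattic replicate 2 held 9.28 M counts, 10.7% mitochondrial, and counts in 32.8%. The values below rest on the 10 libraries (Kira8+Stattic n = 3, Stattic n = 2, Kira8 n = 2, None n = 3) unless all 12 are named. Levels are CPM (gene counts scaled to a common library size) after TMM scaling, and 3 counts correspond to 0.0349 to 0.0581 CPM in these libraries. The test was edgeR's quasi-likelihood test, a call means an adjusted p under 0.05 (Benjamini-Hochberg, over the 21239 genes tested), and changes are log2 ± SE. The cells carried the defining Th17 transcripts in all 10 libraries, among them Cd4 at 344 to 483 CPM and Il17a at 134 to 1394 CPM.

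With Stattic alone, 5 of the 10 genes rose (Nfe2l2, Hmox1, Gclc, Srxn1 and Osgin1), 1 fell (Keap1) and 4 were not called (Nqo1, Gclm, Txnrd1 and Prdx1). Hmox1, which encodes the heme-degrading enzyme heme oxygenase 1, rose 19.9-fold, and the next largest rise was that of Nfe2l2, 3.11-fold. These counts stand beside 39% of all tested genes called with Stattic, 20.1% higher and 18.9% lower. The median change of the 10 genes was 0.45, against 0.079 over all genes tested. On top of Kira8, in libraries that the first comparison did not use, Stattic raised Nfe2l2 and Hmox1 and lowered Keap1 and Nqo1. The other 6 were not called there. In that comparison 30.7% of all genes were called, 14.7% higher and 16% lower, and the median change of the 10 genes was 0.29, against 0.12 over all genes.

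**Figure D1:**
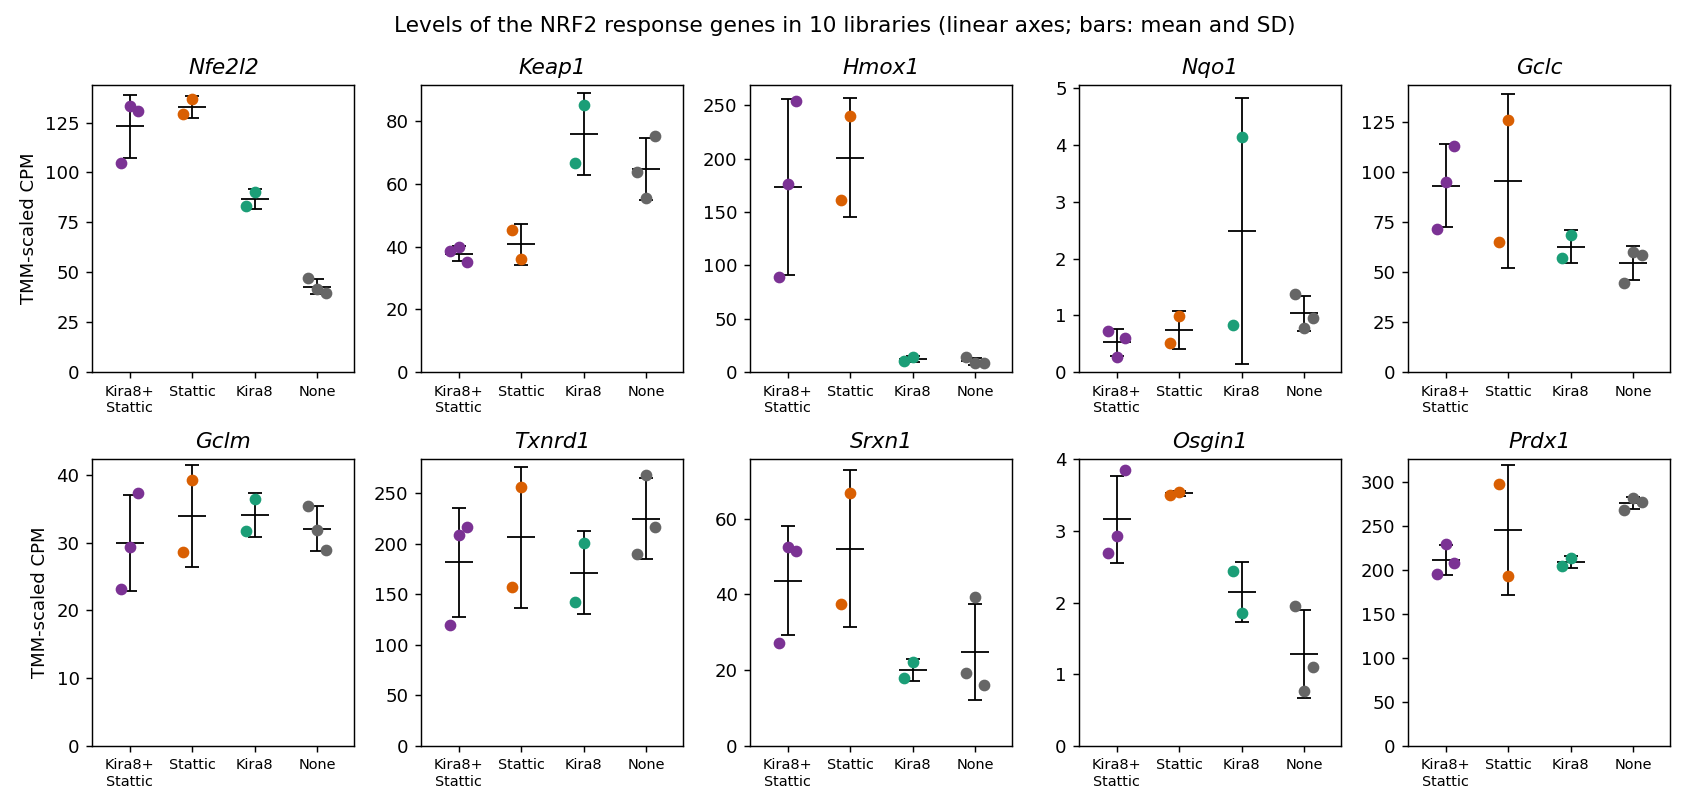
TMM-scaled CPM of each of the 10 genes (linear vertical axes) in Kira8+Stattic, Stattic, Kira8 and None libraries; points are the 10 libraries, and the bars give mean and SD. Hmox1 lies at 89.4 to 254 CPM in the 5 libraries with Stattic, against 8.06 to 14.1 CPM in the 5 without, while Gclm, Txnrd1 and Prdx1 overlap between Stattic and None.

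The regulators come first. Nfe2l2 (chr2:75675513-75704641, mm10, minus strand) had 105, 134 and 131 CPM in Kira8+Stattic replicates 1 to 3, 129 and 137 CPM in Stattic replicates 1 and 3, 83.2 and 90.4 CPM in Kira8 replicates 1 and 3, and 46.9, 41.8 and 39.6 CPM in None replicates 1 to 3. Among these 10, every inhibitor library lay above every None library, and the Kira8 libraries lay between None and the libraries with Stattic. Kira8 replicate 2, which was left out, held Nfe2l2 at 5.85 CPM by total count, against at least 41.4 CPM in None. Nfe2l2 rose with Stattic by 1.64 ± 0.15 (3.11-fold, edgeR adjusted p = 1.19e-05), with Kira8 by 1.02 ± 0.15 (2.03-fold, adjusted p = 0.00089) and with both by 1.52 ± 0.14 over None (2.88-fold, adjusted p = 7.27e-06). It was the sole gene of the 10 called with Kira8 alone, where 19.3% of all genes were called, 9.7% higher and 9.59% lower. These 3 comparisons share the None libraries. On all 12 libraries, the change of Nfe2l2 with Kira8 over None was 0.64 ± 0.45 in edgeR (adjusted p = 0.577). Limma voom with a quality weight per library gave 1.04 ± 0.16 there (adjusted p = 0.000357).

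Stattic added less Nfe2l2 mRNA when Kira8 was present. Over Kira8 the combination was higher by 0.50 ± 0.16 (1.42-fold, adjusted p = 0.0298), and the change by Stattic with Kira8 minus that without was -1.13 ± 0.22 (edgeR interaction, adjusted p = 0.00983). Nfe2l2 was the sole gene of the 10 called in this test, in which 8.52% of all genes were called, 4.55% higher and 3.97% lower. The rise over Kira8 lost its call in several settings: the adjusted p was 0.0972 without Kira8+Stattic replicate 2, 0.0895 without Kira8+Stattic replicate 3, 0.218 without Kira8 replicate 1, 0.123 without Kira8 replicate 3, 0.0905 with scaling by library size alone and 0.0508 with the replicate number as a block. The interaction had an adjusted p of 0.0645 without Kira8 replicate 3.

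Keap1 (chr9:21229730-21239361, minus strand), the gene of the adaptor that has NRF2 degraded, moved the other way. It had 38.5, 39.8 and 35.2 CPM in Kira8+Stattic, 45.5 and 36.2 CPM in Stattic, 66.6 and 85.1 CPM in Kira8, and 63.7, 55.6 and 75.4 CPM in None. All 5 libraries with Stattic lay below all 5 without it. The change was -0.67 ± 0.18 for Stattic over None (adjusted p = 0.0127) and -1.004 ± 0.18 for Kira8+Stattic over Kira8 (adjusted p = 0.00135). The first lost its call without Stattic replicate 3 (-0.51, adjusted p = 0.132). An exon of Keap1 overlaps the antisense gene Gm16754, counted at 3.57 to 8.99 CPM, and since no source used here states whether counting used strand, reads of the pair cannot be told apart.

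Among the targets, Hmox1 (chr8:75093621-75100589, plus strand) separated the libraries by Stattic. It had 89.4, 177 and 254 CPM in Kira8+Stattic, 161 and 240 CPM in Stattic, 10.6 and 14.1 CPM in Kira8, and 13.7, 8.48 and 8.06 CPM in None. The lowest library with Stattic lay several times above the highest without it. The change was 4.32 ± 0.39 for Stattic over None (adjusted p = 9.09e-06) and 3.82 ± 0.44 for Kira8+Stattic over Kira8 (14.1-fold, adjusted p = 9.15e-05). Kira8 over None gave 0.29 ± 0.37, with a 95% interval of -0.52 to 1.10. The change by Stattic with Kira8 minus that without was -0.50 ± 0.52 (adjusted p = 0.623).

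Hmox1 kept both Stattic calls when any 1 of the 10 libraries was left out, with changes of 4.00 to 4.60 over None and 3.44 to 4.13 over Kira8. Per exon length, Hmox1 stood at a mean of 99.1 FPKM in Kira8+Stattic and 115 FPKM in Stattic, against 7.03 FPKM in Kira8 and 5.76 FPKM in None. Of the 10 genes it was thus the highest per length with Stattic, whereas in None libraries Prdx1 (90.6 FPKM), Txnrd1 (31.7 FPKM), Gclc (14.5 FPKM), Keap1 (13.8 FPKM), Nfe2l2 (11.3 FPKM) and Srxn1 (8.82 FPKM) had higher means. In a bulk sample, fewer cells of a type and less RNA per cell cannot be told apart, and this holds for every level given.

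In glutathione synthesis, Gclc was called and Gclm was not, and the difference between them was not tested. Gclc (chr9:77754535-77794485, plus strand) encodes the catalytic subunit of glutamate-cysteine ligase, the first enzyme of the pathway. It had 71.6, 95.1 and 113 CPM in Kira8+Stattic, 64.9 and 126 CPM in Stattic, 56.9 and 68.4 CPM in Kira8, and 44.7, 60.2 and 58.5 CPM in None. The 2 Stattic libraries lay further from each other than their mean lay from that of None, although the groups did not overlap. Gclc rose with Stattic by 0.81 ± 0.27 (1.75-fold, adjusted p = 0.0294) and with both inhibitors over None by 0.77 ± 0.24 (adjusted p = 0.0221), and over Kira8 the combination gave 0.57 ± 0.27 (adjusted p = 0.134).

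Gclc with Stattic over None lost its call without Stattic replicate 3 (0.25, adjusted p = 0.524) and without None replicate 1 (0.69, adjusted p = 0.0699), and missed the threshold with scaling by library size alone (adjusted p = 0.058). For both inhibitors over None, the adjusted p was 0.0578 without Kira8+Stattic replicate 2, 0.0979 without Kira8+Stattic replicate 3, 0.0625 without None replicate 1 and 0.0518 with library size alone. Gclm (chr3:122245557-122270732, plus strand), the modifier subunit of the same ligase, ranged over 23.2 to 37.4 CPM in Kira8+Stattic, 28.7 to 39.3 CPM in Stattic, 31.8 to 36.4 CPM in Kira8 and 28.9 to 35.5 CPM in None. All 4 ranges overlapped. The difference for Stattic over None was 0.082 ± 0.21 (95% interval -0.38 to 0.55). Gss, the glutathione synthetase gene from the further targets described below, gave 0.46 ± 0.17 for Stattic over None (adjusted p = 0.0536). Gclm overlaps the antisense gene Gm17494, counted at 6.76 to 14.5 CPM, so its counts are uncertain.

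In the thioredoxin and peroxiredoxin branch, Srxn1, the gene of sulfiredoxin, which repairs overoxidised peroxiredoxins, was called. Srxn1 (chr2:152105516-152111376, plus strand) had 27.1, 52.5 and 51.4 CPM in Kira8+Stattic, 37.4 and 66.8 CPM in Stattic, 18.0 and 22.0 CPM in Kira8, and 19.2, 39.3 and 16.1 CPM in None. None replicate 2 lay above Stattic replicate 1, so Stattic and None overlapped, while Kira8+Stattic lay wholly above Kira8. Srxn1 rose with Stattic by 1.07 ± 0.38 (2.10-fold, adjusted p = 0.0432). Over Kira8 the combination gave 1.13 ± 0.40 (2.18-fold, adjusted p = 0.0518), and over None 0.81 ± 0.35 (adjusted p = 0.0829).

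The Srxn1 calls sit at the threshold. For Stattic over None the adjusted p was 0.387 without Stattic replicate 3 (change 0.59), 0.1003 without None replicate 1, 0.129 without None replicate 3, 0.0528 and 0.0539 without Kira8+Stattic replicates 2 and 3, and 0.0541 and 0.0548 without Kira8 replicates 1 and 3. For Kira8+Stattic over Kira8 the gene passed with DESeq2 (adjusted p = 0.0114), with limma voom (0.0428) and with the replicate block (change 0.82, adjusted p = 0.0383). It also passed there without Kira8+Stattic replicate 1 (1.37, adjusted p = 0.0223), without Stattic replicate 1 or 3 (0.0485 and 0.0475) and without None replicate 1, 2 or 3 (0.0427, 0.0183 and 0.0417). Over None the combination passed without None replicate 2 (1.31, adjusted p = 0.0076), without Kira8+Stattic replicate 1 (1.02, adjusted p = 0.0354) and with the replicate block (0.85, adjusted p = 0.0121).

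Txnrd1 (chr10:82833951-82897712, plus strand), the cytosolic thioredoxin reductase, ranged over 119 to 216 CPM in Kira8+Stattic, 157 to 256 CPM in Stattic, 142 to 200 CPM in Kira8 and 189 to 268 CPM in None. Its difference for Stattic over None was -0.12 ± 0.29 (95% interval -0.75 to 0.50). Prdx1 (chr4:116685544-116700822, plus strand), a peroxidase that reduces hydrogen peroxide, ranged over 196 to 230 CPM in Kira8+Stattic, 193 to 298 CPM in Stattic, 204 to 213 CPM in Kira8 and 268 to 282 CPM in None. The Stattic and None ranges of both genes overlapped, and Prdx1 gave -0.17 ± 0.18 (95% interval -0.56 to 0.23) for Stattic over None. All 3 Kira8+Stattic libraries lay below all 3 None libraries for Prdx1 (-0.38 ± 0.16, adjusted p = 0.0782), and this passed with library size alone (-0.54, adjusted p = 0.0137) and without Stattic replicate 1 or 3 (0.0372 and 0.0376).

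Osgin1 (chr8:119434124-119446256, plus strand), an oxidative stress induced growth inhibitor, was low throughout. It had 2.70, 2.93 and 3.85 CPM in Kira8+Stattic, 3.50 and 3.55 CPM in Stattic, 2.44 and 1.85 CPM in Kira8, and 1.96, 0.769 and 1.10 CPM in None. The libraries with Stattic lay above all the others, with a narrow gap to Kira8. Osgin1 rose with Stattic by 1.46 ± 0.39 (2.75-fold, adjusted p = 0.0113) and with both over None by 1.31 ± 0.36 (adjusted p = 0.0122), and over Kira8 the combination gave 0.56 ± 0.40 (adjusted p = 0.321). The first had an adjusted p of 0.0522 without Stattic replicate 3, and the second 0.0516 without Kira8+Stattic replicate 3. Kira8 over None gave 0.75 ± 0.40 and passed without None replicate 1 (1.19, adjusted p = 0.0401).

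Nqo1 (chr8:107388225-107403206, minus strand), the quinone reductase often used as a readout of NRF2 in other tissues, was barely expressed. It had 0.727, 0.263 and 0.594 CPM in Kira8+Stattic, 0.508 and 0.983 CPM in Stattic, 0.830 and 4.14 CPM in Kira8, and 1.38, 0.769 and 0.953 CPM in None. Stattic lay within the spread of None apart from replicate 1, and Kira8 replicate 3 alone stood high. The change for Stattic over None was -0.47 ± 0.68 (adjusted p = 0.614). Nqo1 fell with Kira8+Stattic relative to Kira8, by 2.23 ± 0.66 on the log2 scale (adjusted p = 0.0235), but the change was -0.66 (adjusted p = 0.586) without Kira8 replicate 3. The call was also lost without Kira8+Stattic replicate 2 (0.0798), without Kira8+Stattic replicate 3 (0.0606), with limma voom (0.0584) and with the replicate block (-1.80, adjusted p = 0.0619).

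**Figure D2:**
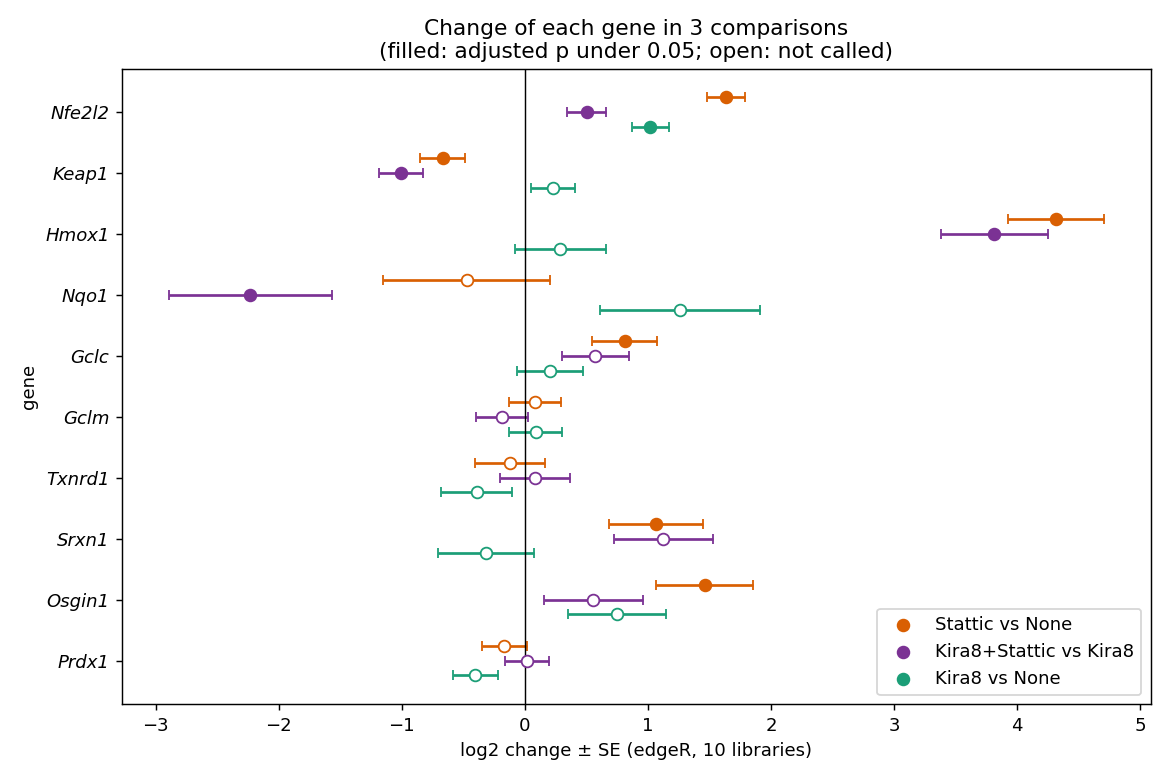
Change of each of the 10 genes (horizontal axis, log2 ± SE from edgeR on 10 libraries) for Stattic vs None, Kira8+Stattic vs Kira8 and Kira8 vs None; filled points have an adjusted p under 0.05. Hmox1 is far to the right in both comparisons that add Stattic (4.32 and 3.82) and near 0 with Kira8 (0.29), and Keap1 is to the left in both (-0.67 and -1.004).

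Set against None, the combination called 5 of the 10 genes: Nfe2l2, Hmox1, Gclc and Osgin1 higher and Keap1 lower. Of all genes 40.8% were called there, 20.8% higher and 20% lower, so the count of 5 of 10 is near the background. The numbers of genes called depend on single libraries. Without Stattic replicate 3, which leaves 1 Stattic library, the change over None was -0.51 for Keap1, 0.25 for Gclc, 0.59 for Srxn1 and 1.45 for Osgin1. Nfe2l2 and Hmox1 rose by at least 1.58 and 4.00 over None when any 1 library was left out. With Kira8+Stattic over Kira8 2 of the 10 were called without Kira8+Stattic replicate 2 or without replicate 3. Of all genes, 4915 of 20915 and 4573 of 20922 were called there. With the combination over None 3 of the 10 were called without Kira8+Stattic replicate 3, where 6937 of 20922 genes were called. Without Kira8 replicate 3, which leaves 1 Kira8 library, the combination over Kira8 gave 0.56 for Nfe2l2 and -0.66 for Nqo1.

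The libraries that stood apart were then added back. In edgeR on all 12 libraries, 0 of the 10 genes were called in any comparison, and the common dispersion was 1.01, against 0.143 in the 10. With Stattic over None 65 genes of the whole table were then called (4110 at an unadjusted p under 0.05), and with Kira8+Stattic over Kira8 0 (2536 at an unadjusted p under 0.05). The 12-library change of Hmox1 for Stattic over None was 3.81 ± 1.17 (unadjusted p = 0.00747, adjusted p = 0.159) and that of Nfe2l2 was 1.89 ± 0.46 (unadjusted p = 0.00161, adjusted p = 0.117). Limma voom on the same 12 libraries with a quality weight per library gave Stattic replicate 2 a weight of 0.0503 and Kira8 replicate 2 one of 0.0763. It called 4 of the 10 genes for Stattic over None: Nfe2l2 (1.67), Hmox1 (4.41), Keap1 (-0.74) and Osgin1 (1.63), with Srxn1 at an adjusted p of 0.0521 and Gclc at 0.0753. For Kira8+Stattic over Kira8 it called 6, adding Gclc (0.59) and Srxn1 (1.16) to the 4 called without those libraries. Of the 20993 genes tested in that weighted fit, 7778 were called for Stattic over None and 9279 for Kira8+Stattic over Kira8.

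**Figure D3:**
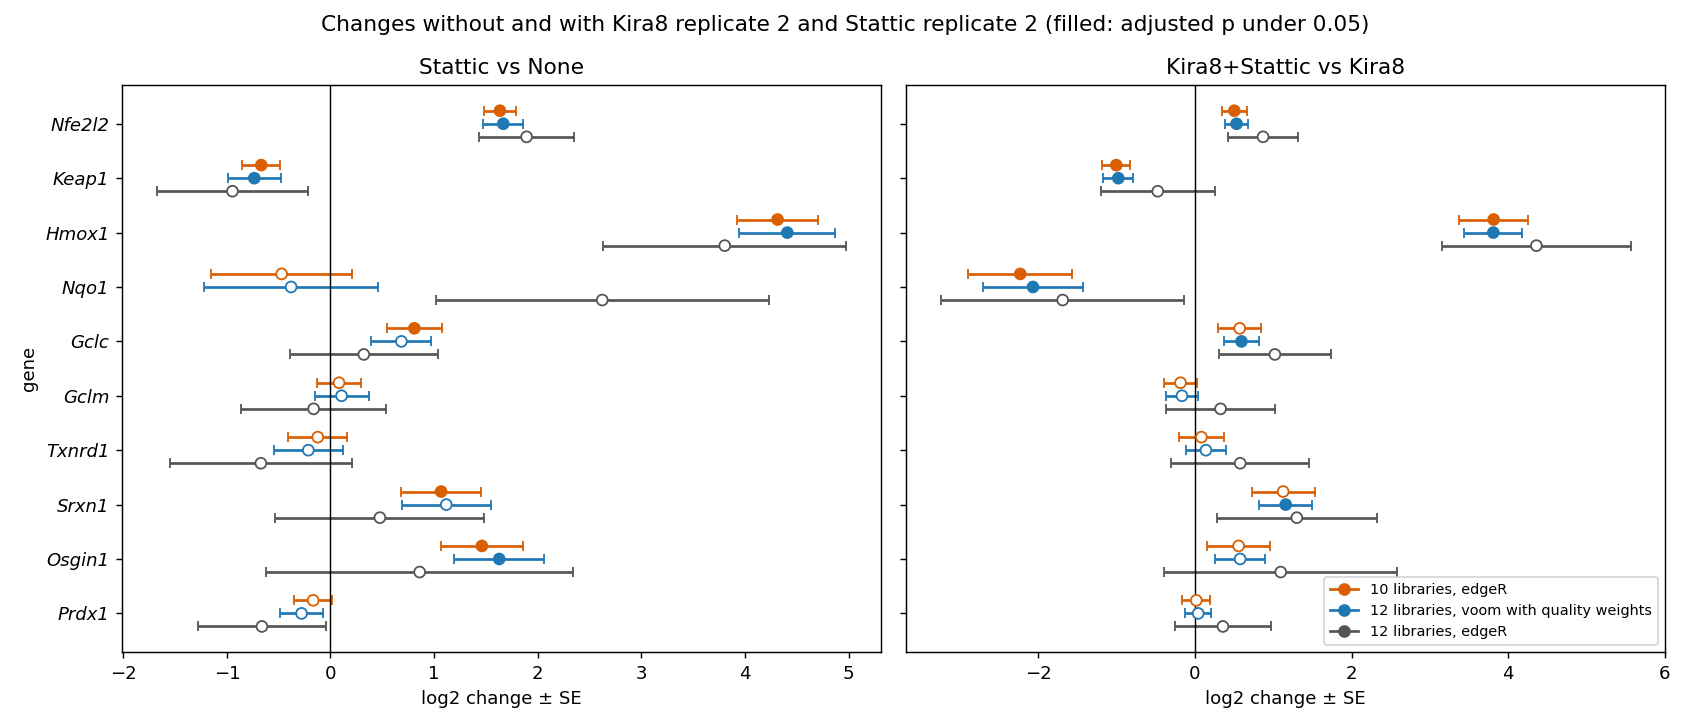
Change of each gene (log2 ± SE) for Stattic vs None and Kira8+Stattic vs Kira8 in edgeR on 10 libraries, in limma voom with quality weights on 12 and in edgeR on 12; filled points have an adjusted p under 0.05. The weighted 12-library values lie close to the 10-library values, and no 12-library edgeR value is filled; Nqo1 for Stattic vs None lies at -0.47 in 10 libraries and at 2.62 in 12.

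Around the 10 genes, 16 regulators and partners of NRF2 were examined. With Stattic over None 9 rose, 2 fell and 5 were not called (68.8% called, against 39% of all genes), with a median change of 0.71 against 0.079 over all genes. Maff, a small MAF that can pair with NRF2, averaged 101 ± 0.368 CPM in Stattic and 17.1 ± 0.803 CPM in None (SD, n = 2 and 3), a change of 2.55 ± 0.17. Mafk, another small MAF, averaged 218 ± 20.9 CPM in Stattic and 76.3 ± 5.77 CPM in None (1.52 ± 0.16). Sqstm1, whose protein p62 sequesters KEAP1, averaged 473 ± 31.5 CPM in Stattic and 120 ± 10.6 CPM in None (1.98 ± 0.21). Crebbp, a coactivator, changed by 1.66 ± 0.21.

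Also higher, and named after their values were seen, were Bach1, the repressor at the same elements, at 168 ± 51.8 CPM in Stattic and 44.4 ± 18.7 CPM in None (1.92 ± 0.33, adjusted p = 0.000673), and Cul3, the ubiquitin ligase scaffold (0.69 ± 0.16). Those that fell were Bach2 (-0.63 ± 0.19), a relative of Bach1, and Dpp3 (-1.33 ± 0.24), whose protein binds KEAP1. The count of those that fell was 1 without Stattic replicate 1, without Stattic replicate 3 or without None replicate 2. Genes of activators and of repressors of the response were both among those that rose.

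On top of Kira8, 5 of these 16 rose with Stattic and 4 fell (56.2% called, against 30.7% of all genes), with a median of 0.26 against 0.12. Bach1 (2.39 ± 0.36), Mafk (2.31 ± 0.18), Maff (1.90 ± 0.18), Fbxw11 (0.86 ± 0.20) and Cul3 (0.82 ± 0.16) were higher, and Bach2, Mafg, Dpp3 and Btrc were lower. The number higher was 3 without Kira8 replicate 1, and the number lower was 1 without Kira8+Stattic replicate 2 or 3 or without Kira8 replicate 1 or 3. Kira8 alone raised 6 (Maff, Mafg, Nfe2l3, Btrc, Sqstm1 and Crebbp) and lowered Mafk (-0.60 ± 0.17), which is 43.8% called, against 19.3% of all genes. Without Kira8 replicate 3, 3 were higher with Kira8 alone, and 0 were lower without Kira8 replicate 1, without Kira8 replicate 3 or without None replicate 2. Sqstm1 averaged 434 ± 114 CPM in Kira8, against 120 ± 10.6 CPM in None (1.85 ± 0.21). The change by Stattic with Kira8 minus that without was called for Sqstm1 (-1.85 ± 0.30), Crebbp (-1.10 ± 0.30) and Mafg (-1.08 ± 0.28), 3 of 16 (18.8%), against 8.52% of all genes. The number lower was 1 when any 1 of the 3 Kira8+Stattic libraries, Stattic replicate 3 or either Kira8 library was left out, and 1 other gene was higher without Kira8+Stattic replicate 1.

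Of 30 further targets of NRF2, 8 rose with Stattic over None, 4 fell and 18 were not called, which is 40% called against 39% of all genes, with a median of 0.37 against 0.079. Idh1, the NADP-dependent isocitrate dehydrogenase of the cytosol, rose by 1.57 ± 0.24, and Prdx6, a peroxiredoxin, by 1.08 ± 0.19, at 287 ± 10.4 CPM in Stattic and 136 ± 30.6 CPM in None. Gsr, the glutathione reductase, fell by 1.22 ± 0.19 on the log2 scale, at 21.8 ± 1.75 CPM in Stattic and 50.9 ± 6.15 CPM in None, and the exporter gene Abcc4 fell by 1.67 ± 0.22 on that scale. Named after their values were seen, Blvrb (biliverdin reductase B, 1.17 ± 0.26), Slc48a1 (a heme transporter, 0.81 ± 0.18) and Ftl1 (ferritin light chain, 0.58 ± 0.18) were higher. In the same list Blvra, the other biliverdin reductase gene (-0.19 ± 0.20, adjusted p = 0.478), and Fth1, the ferritin heavy chain gene (0.41 ± 0.21, adjusted p = 0.148), were not called. G6pdx, which supplies NADPH, was lower (-0.80 ± 0.16).

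On top of Kira8, 10 of the 30 rose with Stattic and 4 fell (46.7% called, against 30.7% of all genes), with a median of 0.59 against 0.12. The 10 included Prdx6 (1.09 ± 0.20), Ephx1 (1.33 ± 0.30), an epoxide hydrolase, and Txn1 (0.85 ± 0.18), the thioredoxin gene, and the 4 included Gsr (-1.18 ± 0.18) and Slc48a1 (-0.52 ± 0.18). Blvrb was higher there (0.93 ± 0.27), and Ftl1 was not called (0.19 ± 0.19, adjusted p = 0.483). Fewer were called without Kira8 replicate 1 or without Kira8 replicate 3, each of which leaves 1 Kira8 library, and fewer of all genes were called there too. A fit of the compared groups alone gave 16 higher, with 8550 of 19428 genes called in all. Kira8 alone raised 3 (Ftl1, Idh1 and Slc48a1) and lowered 2 (Abcc4 and Gstp1), 16.7% called, against 19.3% of all genes. The number lower was 8 with DESeq2, 6 with the replicate block, 6 with the filter of more than 1 CPM in at least 3 libraries and 4 with RLE size factors. Of all genes, 5300 of 21239, 4423 of 21239, 4528 of 14268 and 4130 of 21239 were called with Kira8 alone in these settings, in the same order. The number higher with Kira8 alone was 0 without Kira8 replicate 1, and the number lower was 4 without Kira8+Stattic replicate 1, 4 without None replicate 3, 1 with Kira8 replicate 1 left out and 0 with Kira8 replicate 3 left out. The difference of the Stattic changes was called for Slc48a1 (-1.33 ± 0.26) and Gstp1 (1.24 ± 0.35), 6.67% of the 30, against 8.52% of all genes. The number higher was 0 without any 1 of the 3 Kira8+Stattic libraries, without Stattic replicate 3, without Kira8 replicate 3, without None replicate 1 or with library size alone, 2 without None replicate 3 and 3 with DESeq2. The number lower was 0 without Kira8 replicate 1, and 2 without None replicate 1, with DESeq2, with limma voom or with the 1 CPM filter.

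The 14 antioxidant enzymes outside both lists were mixed with Stattic over None, where 5 rose and 4 fell (64.3% called, against 39% of all genes), with a median of -0.0065. Sod1, the cytosolic superoxide dismutase, rose by 1.07 ± 0.16, Gpx4, the lipid hydroperoxide reductase, by 1.19 ± 0.26 and Prdx2 by 0.90 ± 0.21, while Txn2, the mitochondrial thioredoxin, fell by 0.74 ± 0.17 on the log2 scale. The number that rose was 1 without Stattic replicate 1, and 3 with library size alone or with the compared groups alone. The number that fell was 0 without Stattic replicate 3, and 2 without None replicate 1 or with the compared groups alone. Of all genes, 6735 of 19261 were called for Stattic over None with the compared groups alone, 8269 of 21239 with library size alone and 8649 of 20777 without None replicate 1. On top of Kira8, 8 of the 14 enzymes rose and 0 fell (57.1% called, against 30.7% of all genes), with a median of 0.63. The number that rose was 5 without Kira8+Stattic replicate 2, 4 without Kira8+Stattic replicate 3, 4 without Kira8 replicate 1 and 1 without Kira8 replicate 3, and 1 fell without None replicate 1.

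Kira8 alone raised 1 of these enzymes (Sod1, 0.57 ± 0.16) and lowered 5 (Sod2, Gpx1, Txn2, Glrx and Glrx5), 42.9% called, against 19.3% of all genes. Sod1 lost its call in that comparison without Kira8+Stattic replicate 2, without either Kira8 library, without None replicate 2 or without None replicate 3, leaving 0 higher, and 3 were lower without either Kira8 library. The difference of the Stattic changes with and without Kira8 was called for Glrx5 (1.47 ± 0.25) and Txn2 (1.17 ± 0.24), 14.3% of the 14, against 8.52% of all genes, and 1 was called without Stattic replicate 3 or without either Kira8 library. With all 12 libraries in edgeR, 0 genes of these 3 lists were called with Stattic over None, with Kira8+Stattic over Kira8 or with Kira8 over None. With quality weights on the 12, Stattic over None gave 7 higher and 4 lower among the further targets. There were 8 and 2 among the regulators and 4 and 2 among the other enzymes. Kira8+Stattic over Kira8 gave 15 and 3, 7 and 4, and 8 and 0 in the same order. Of all 20993 genes tested in that fit, 7778 and 9279 were called in these comparisons.

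**Figure D4:**
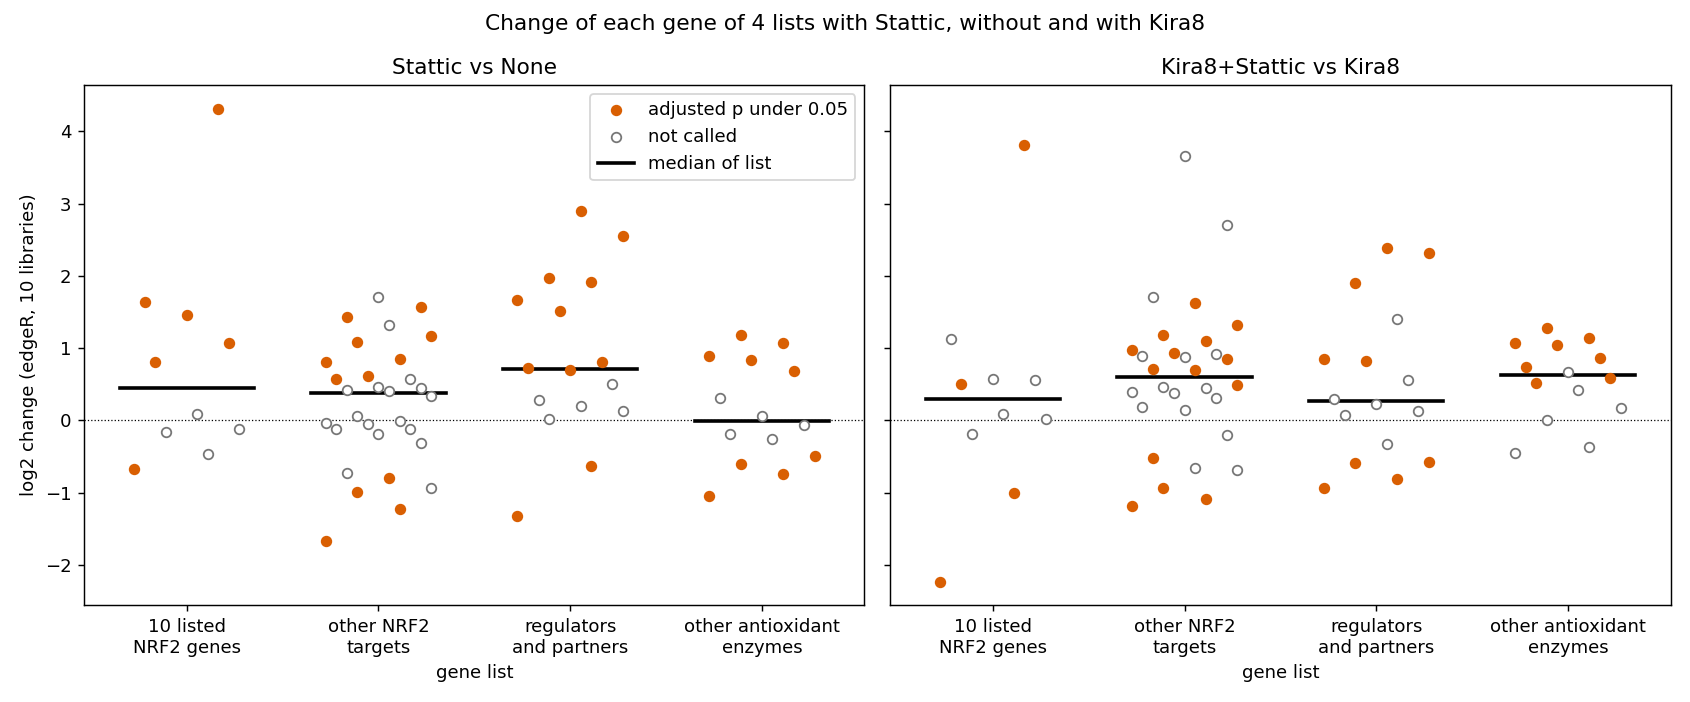
Change of each gene (vertical axis, log2, edgeR on 10 libraries) of 4 lists for Stattic vs None and Kira8+Stattic vs Kira8; filled points have an adjusted p under 0.05 and the black lines are the list medians. The 10 NRF2 genes have medians of 0.45 and 0.29, with Hmox1 far above the rest, and genes above and below 0 occur in all 4 lists.

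Over the 10 libraries, the genes whose pattern was most like that of Hmox1, by root-mean-square distance of centred log2(CPM + 1) among 10347 genes with a mean of at least 5 CPM, were Hey1 (0.30), Fhdc1 (0.31), Hspa1l (0.33) and Bag3 (0.36). Those most like Srxn1 were Gata3 (0.23), Ints6 (0.26), Itgb8 (0.26), Frmd4a (0.26) and Pcyt1a (0.27). No gene so named belongs to the lists above. The libraries of a group share their treatment, so a likeness in pattern is a description of these libraries.

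Markers of other cells moved with the groups. All 6 B cell markers fell with Stattic over None, and their summed level was 16.5 to 33.5 CPM in Kira8+Stattic, 14.1 to 24.2 CPM in Stattic, 36.9 to 45.0 CPM in Kira8 and 113 to 130 CPM in None. Of 7 Th17 markers 5 fell, and their sum was 963 to 1011 CPM in Kira8+Stattic, 940 to 1114 CPM in Stattic, 935 to 1020 CPM in Kira8 and 1265 to 3195 CPM in None. Of 6 CD8 T and NK cell markers, summing to 49.7 to 87.8 CPM in Kira8+Stattic, 78.8 to 102 CPM in Stattic, 35.3 to 48.8 CPM in Kira8 and 142 to 247 CPM in None, 1 rose and 1 fell with Stattic, and Ncr1 was at 0 in every library with an inhibitor and at most 0.101 CPM in None. On top of Kira8, Stattic lowered 1 of the 6 B cell and 1 of the 7 Th17 markers and raised 2 of the CD8 T and NK cell markers. Of all genes, 18.9% were lower and 20.1% higher with Stattic over None, and 16% and 14.7% with Kira8+Stattic over Kira8. Kira8 alone lowered 4 B cell, 3 Th17 and 3 CD8 T and NK cell markers, against 9.59% of all genes lower. The part of these shifts in the changes of the NRF2 genes was not tested.

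Macrophages and other myeloid cells can hold much Hmox1 mRNA. The 10 myeloid markers summed to 31.9 to 114 CPM in Kira8+Stattic, 42.6 to 57.7 CPM in Stattic, 66.5 to 69.4 CPM in Kira8 and 39.2 to 52.8 CPM in None. With Stattic over None, Cd68 (0.92 ± 0.26) and Cd14 (2.45 ± 0.53) rose, Spi1 (-1.64 ± 0.53) fell and 7 were not called. That is 30% called, against 39% of all genes. On top of Kira8, Stattic changed 0 of the 10 at the threshold, and Cd68 gave 0.64 ± 0.26 (edgeR adjusted p = 0.0859). Cd68 averaged 10.8 ± 0.999 CPM in Kira8+Stattic and 6.94 ± 1.47 CPM in Kira8 (SD, n = 3 and 2), and 8.96 ± 0.57 CPM in Stattic and 4.73 ± 1.22 CPM in None (SD, n = 2 and 3). The part of myeloid cells in the change of Hmox1 was not tested. Lyz2 had the highest level of the 10 myeloid markers, at 12.9 to 83.8 CPM, and was not called with Stattic over None (-0.069 ± 0.55). Adgre1, a macrophage marker, lay at 0 to 2.03 CPM. The 6 red cell markers summed to at most 1.37 CPM in any library.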

How the data were processed

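Total RNA was sequenced in 12 libraries. The authors deposited raw read counts per Ensembl gene, whole numbers with no normalization. The reads were placed on mm10, per the submitters' processing notes. How they were aligned and counted, on which annotation and with or without strand, is not given in the sources used here. Groups and replicate numbers come from the sample titles. Gene positions come from GENCODE vM21.

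The 10 genes and the other lists were chosen with earlier results of these data known, as was the choice to leave out Kira8 replicate 2 and Stattic replicate 2. From the deposited counts, genes were kept with filterByExpr, scaled by TMM and fitted with edgeR 4.0.16 (R 4.3.3), glmQLFit and glmQLFTest, in 1 fit of 10 libraries with 4 groups, for 5 comparisons. Adjusted p-values are Benjamini-Hochberg over all 21239 genes tested. The SE is the size of the log2 change divided by the square root of F. FPKM uses union exon length and TMM-scaled library size. Depth ran from 51.7 to 85.9 M counts, the 95% intervals come from the edgeR fit, and floors of 3 counts cover counting error only. The lowest chi-square per gene between replicates was 30.0, so none was counted as a copy. The script was tested on simulated data.

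All 10 genes are given in every comparison; of each other list, the up to 4 genes with the smallest adjusted p for Stattic over None, and for Hmox1 and Srxn1 the 5 genes nearest in pattern, of which 1 is not reported here; other names were chosen after their values were seen. Alternatives were all 12 libraries, those with limma 3.58.1 voom and quality weights, DESeq2 1.42.0 and unweighted voom, scaling by RLE or by library size alone, testing all genes or those with more than 1 CPM in at least 3 libraries, the replicate number as a block, the compared groups alone, and leaving out each library. The same alternatives for the counts of the other lists were added after the data were seen.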

Additional observations from a re-analysis of the deposited data

Results flagged for a closer look

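The change of Nfe2l2 by Stattic differed with Kira8: the change with Kira8 minus that without was -1.13 ± 0.22 (edgeR interaction, adjusted p = 0.00983), the Stattic change being 0.50 with Kira8 and 1.64 without it. In edgeR on all 12 libraries the interaction was -1.02 ± 0.63 (adjusted p = 0.488). Limma voom with quality weights on the 12 gave -1.14 ± 0.24 (adjusted p = 0.0112).

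Stattic replicate 2, which stands outside the 10 libraries, held 3 of the genes above every None library, in CPM by total count. Nfe2l2 was at 178 CPM in Stattic replicate 2, against at most 51.8 CPM in None. Hmox1 was at 23.5 CPM in Stattic replicate 2, against at most 15.1 CPM in None. Nqo1 was at 14.8 CPM in Stattic replicate 2 (137 counts), against at most 1.53 CPM in None. The other 7 lay below every None library there. The share of all genes lying above or below every None library in Stattic replicate 2 was not counted, so these counts have no background. In Stattic replicate 2 Keap1 was at 16.9 CPM, against at least 57.3 CPM in None, Gclc at 12.7, against at least 49.4, Gclm at 15.7, against at least 30.2, Txnrd1 at 12.6, against at least 209, and Prdx1 at 32.1, against at least 290 CPM in None. Srxn1 had 4 counts and Osgin1 had 0, with 3 counts worth 0.323 CPM.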

How the results depend on the processing

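In edgeR on all 12 libraries the genes called fell in number to 65 for Stattic over None, 0 for Kira8+Stattic over Kira8 (2536 at an unadjusted p under 0.05), 57 for Kira8+Stattic over None, 0 for Kira8 over None (2689) and 0 for the interaction (3542), with 0 of the 10 genes called in each; voom with quality weights on the same libraries called 7778, 9279, 9959, 4672 and 1545 genes. DESeq2 called 3119 genes in the interaction, against 1810. The cause was not tested. Leaving out 1 library gave 5534 to 8649, 3270 to 7457, 6937 to 9091, 1642 to 4118 and 498 to 2066 genes in the same order of comparisons, and 2 to 6, 2 to 5, 3 to 6, 1 to 2 and 0 to 1 of the 10 genes.

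Same-numbered libraries of different groups correlated in their deviations at -0.16 to 0.45 (13 pairs, 11 over 0.1), and 8 of 10 libraries correlated best with their own number, a hint from the data. Since not every pair was over 0.1, the numbers were not taken as pairs. With the replicate block 8062, 6660, 8947, 4423 and 1784 genes were called, and 6, 3, 6, 1 and 1 of the 10 genes. Under the block, uncalled values that changed sign were Txnrd1 (-0.068) and Prdx1 (-0.023) for Kira8+Stattic over Kira8, Srxn1 (0.026) for Kira8 over None, and Txnrd1 (-0.039) and Srxn1 (-0.54) in the interaction.

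The other changes of sign were also in uncalled values. With all 12 libraries they were, for Stattic over None, Nqo1 (2.62) and Gclm (-0.16); for Kira8+Stattic over Kira8, Gclm (0.33); for Kira8 over None, Keap1 (-0.32), Hmox1 (-0.28), Gclc (-0.26) and Gclm (-0.44); and in the interaction Keap1 (0.47), Hmox1 (0.56), Gclc (0.70), Gclm (0.49) and Osgin1 (0.24). With library size alone, which moved the median of all genes by -0.16 for Stattic over None, -0.12 for Kira8+Stattic over Kira8 and -0.15 for Kira8+Stattic over None, Gclm became -0.078 for Stattic over None, and Txnrd1 -0.057 and Prdx1 -0.11 for Kira8+Stattic over Kira8. Limma voom gave Srxn1 -0.043 in the interaction. Leaving out 1 library gave, for Stattic over None, Gclm -0.16 to 0.29, Txnrd1 -0.52 to 0.18 and Prdx1 -0.52 to 0.11; for Kira8+Stattic over Kira8, Txnrd1 -0.15 to 0.35 and Prdx1 -0.045 to 0.066; for Kira8+Stattic over None, Gclm -0.29 to 0.015; for Kira8 over None, Nqo1 -0.31 to 2.00, Gclm -0.012 to 0.18 and Srxn1 -0.55 to 0.18; and in the interaction Gclc -0.64 to 0.32, Txnrd1 -0.10 to 0.60, Srxn1 -0.44 to 0.54 and Prdx1 -0.093 to 0.53. Nqo1 and Osgin1 were both under 5 CPM after TMM scaling, and the part of depth in their spread was not tested.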
